A study of Mus musculus with 10 samples.

Results

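The 4 Hox genes of paralog group 13, Hoxa13, Hoxb13, Hoxc13 and Hoxd13, were followed through tail bud RNA sequencing libraries of mouse embryos at the embryonic stage that the labels write as e12point5. They were taken by name from the 38720 gene symbols of the count table, and all 4 passed the filter on low counts that left 16340 tested genes. The 10 libraries came from microdissected tail bud, the tissue at the posterior end of the embryo, in a study of the Lin28/let-7 pathway in the lengthening of the caudal body axis. Lin28a-induced embryos (replicates 2 to 5, n = 4) carried TRE-Lin28a, RLSL-rtTA and FoxD1-Cre and were treated with doxycycline (Dox). No-Cre embryos (replicates 6 to 8, n = 3) also received Dox and carried TRE-Lin28a and RLSL-rtTA without a Cre. For the wild-type embryos (replicates 1 to 3, n = 3) the labels name neither a transgene nor Dox. In this system the rtTA activator is made after Cre recombination, so the transgene is switched on in cells with a history of FoxD1-Cre activity and not by design in every cell of the tail bud. The Lin28a-induced and no-Cre groups differ in the Cre allele itself as well as in the induced gene, and both differ from wild type in transgenes and Dox together.

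Hox genes encode homeodomain transcription factors and lie in 4 clusters, in which genes nearer the 5′ end are expressed later and more posteriorly. Group 13 is the 5′-most group. Its proteins are known for counteracting more anterior Hox proteins and for slowing axis growth when they are expressed early, and loss of Hoxb13 in the mouse gives an overgrown tail. Hoxa13 and Hoxd13 also pattern the digits, the cloaca and the genital tubercle, and Hoxc13 is needed for hair and nails. Lin28a and Lin28b encode RNA-binding proteins that block maturation of the let-7 microRNAs, which repress transcripts carrying matches to their seed.

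The seed sequences are shown here because let-7 links the induced gene to its direct targets. The mature microRNAs, from RefSeq, are written 5′ to 3′ with the seed (bases 2 to 8) in capitals. miR-196a is shown beside let-7a because it is encoded within the Hox clusters and its seed resembles that of let-7 shifted by a base.
let-7a-5p: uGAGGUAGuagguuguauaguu
miR-196a-5p: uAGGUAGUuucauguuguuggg

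None of the 4 genes has a seed match of 7 bases to let-7 (CTACCTC), miR-196 (ACTACCT) or miR-10 (ACAGGGT) in its annotated 3′ UTR, read on the transcript strand. The UTRs searched were 1213 bases long in Hoxa13, 1221 in Hoxb13, 1392 in Hoxc13 and 1466 in Hoxd13. Among 13609 tested genes with an annotated 3′ UTR, 11.4% hold the let-7 match, 7.5% the miR-196 match and 15.6% the miR-10 match. The let-7 match does occur in paralogs of group 11, with 1 in Hoxa11 and 1 in Hoxc11, and Nr6a1, a nuclear receptor gene of the trunk stage, holds 8. A match describes these letters and is not a shown target site. The matches of the group 11 genes are given on the transcript strand with the seed match in capitals, on GRCm38 (mm10): Hoxa11 at chr6:52242677-52242703 (minus strand) and Hoxc11 at chr15:102957253-102957279 (plus strand).
Hoxa11: tacctgggttttCTACCTCccaatggt
Hoxc11: aaagtccaaatcCTACCTCcgtctgcg

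The 4 genes lie on different chromosomes of GRCm38. Hoxa13 (ENSMUSG00000038203.18) spans chromosome 6 from 52257694 to 52260880 on the minus strand. Hoxb13 (ENSMUSG00000049604.3) spans chromosome 11 from 96194316 to 96197447, Hoxc13 (ENSMUSG00000001655.6) spans chromosome 15 from 102921103 to 102928814, and Hoxd13 (ENSMUSG00000001819.4) spans chromosome 2 from 74668310 to 74671599, all on the plus strand. Hoxb13 stands apart from its cluster, 74 kb from Hoxb9, whereas 11.9 kb separate Hoxa13 from Hoxa11, 7.94 kb Hoxc13 from Hoxc12 and 3.41 kb Hoxd13 from Hoxd12. Their transcripts share little sequence with other genes: of the 32-base words in each, 0.618% of those of Hoxa13 and 0.0412% of those of Hoxc13 occur in another annotated gene, and none of those of Hoxb13 or Hoxd13.

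The libraries held 21762668 to 39517946 counts. Each Hox13 gene was covered by 1958 counts or more in every library. Lin28a stood at 605 to 750 CPM (read counts divided by the TMM-scaled size of the library) in the Lin28a-induced libraries, at 2.64 to 5.03 CPM in no-Cre and at 4.45 to 6.16 CPM in wild type, so it was high in the libraries labelled as carrying Cre and in no other. Wild-type libraries differed in composition: mitochondrially encoded genes took 1.85% to 2.69% of their counts against 0.446% to 0.690% in the other 7. The 4 surface ectoderm markers (Trp63, Krt5, Krt14, Krt15) summed to 332 to 418 CPM in wild type, 82.5 to 97.4 CPM in Lin28a-induced and 88.8 to 103 CPM in no-Cre libraries. The 5 hindgut markers summed to 275 to 361 CPM in wild type and to 145 to 168 CPM in the other 7 libraries, but went both ways. Epcam and Cldn6, general epithelial genes that carry the sum, fell against wild type in both groups, whereas Foxa1 (0.85 ± 0.27 in Lin28a-induced, 1.18 ± 0.28 in no-Cre) and Sox17 (1.69 ± 0.34 and 1.59 ± 0.36) rose. The 3 macrophage markers summed to 10.9 to 30.5 CPM in wild type and to 35.7 to 59.3 CPM in the other 7. Limb markers, of a tissue that also expresses Hox13 genes, were near 0, with Tbx5 at 0 to 0.116 CPM, Tbx4 at 0 to 0.199 CPM and Pitx1 at 1.79 to 5.66 CPM. Counts of Xist and Ddx3y marked 2 female libraries, replicate 5 of the Lin28a-induced and replicate 7 of the no-Cre group, and 8 male ones.

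Wild-type replicate 2 stood apart from the other wild-type libraries in the genes that matter here. Its 8 markers of tail bud progenitors and presomitic mesoderm summed to 279.6 CPM, against 635 and 640 CPM in replicates 1 and 3. Relative to the mean of those libraries, Fgf8 and Wnt3a, which encode growth signals of the tail bud, were at 0.217 and 0.307, and T, the Brachyury gene, at 0.397. Hoxb13 was at 0.540, Hoxd13 at 0.600, Hoxc13 at 0.700 and Hoxa13 at 0.856 of that mean, where the median over 13598 genes was 0.986 and the 5th and 95th percentiles were 0.631 and 1.52. This library holds 56.9% of the within-group squared deviations of Hoxb13, 57.0% of those of Hoxc13, 57.9% of those of Hoxd13 and 38.7% of those of Hoxa13. Estimates for the Hox13 genes against wild type are therefore given with and without it. Counts of overlap, levels scaled by exon length and shares of the summed level include it. In bulk tissue, fewer cells expressing a gene and less RNA per cell cannot be told apart.

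**Figure D1:**
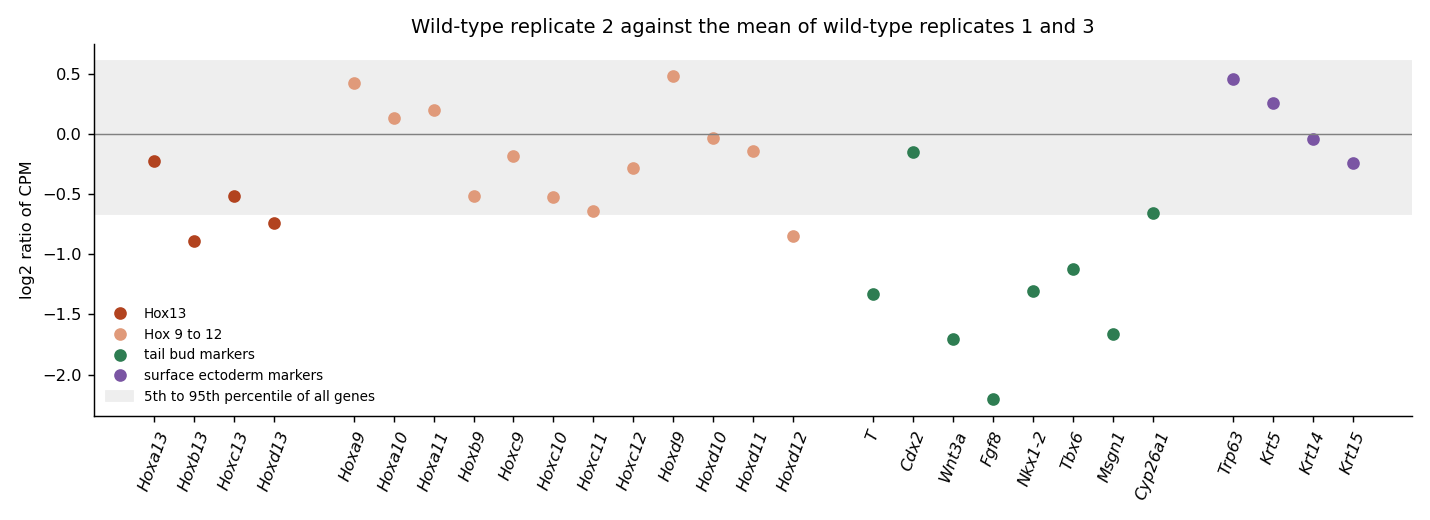
CPM of wild-type replicate 2 over the mean of wild-type replicates 1 and 3, on a log2 scale, for the Hox13 genes, Hox groups 9 to 12, tail bud markers and surface ectoderm markers (1 point per gene). Hoxb13 and Hoxd13 lie below the grey band of the 5th to 95th percentile of 13598 genes, as do T, Wnt3a and Fgf8, whereas Hoxa13 and Hoxc13 lie inside it.

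The first comparison set Lin28a-induced against no-Cre embryos, which share Dox and both transgenes, and asked whether induction of Lin28a altered the Hox13 genes. Hoxc13 was the member whose libraries separated. It stood at 212, 214, 225 and 227 CPM in Lin28a-induced replicates 2 to 5 and at 181, 169 and 182 CPM in no-Cre replicates 6 to 8. Every Lin28a-induced library was above every no-Cre library. The difference was 1.24-fold (log2 fold change 0.31 ± 0.11 SE, 95% interval 0.08 to 0.54) and did not pass in the edgeR fit of all 10 libraries (adjusted p = 0.162). That fit takes its spread from all 3 groups. Without wild-type replicate 2 the same difference was 0.30 ± 0.05 and passed (adjusted p = 0.00143), and with the wild-type group left out it was 0.30 ± 0.04 (adjusted p = 0.000556). These 3 fits hold the same Lin28a-induced and no-Cre libraries, so the size of the Hoxc13 difference could hardly move between them. Its call rested on which wild-type libraries entered the spread. The 4 neural tube markers, of which Sox2 gave nearly all counts, also separated these groups, with sums of 47.2 to 59.9 CPM in Lin28a-induced and 66.1 to 81.6 CPM in no-Cre libraries, and their part in the Hoxc13 difference was not tested. The tail bud marker sums overlapped (703 to 968 and 715 to 729 CPM).

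Hoxa13 stood at 95.7, 95.8, 100.5 and 97.7 CPM in Lin28a-induced and at 100.5, 99.2 and 109.8 CPM in no-Cre libraries. These ranges overlapped (log2 fold change -0.08 ± 0.06, 95% interval -0.22 to 0.06, adjusted p = 0.593). Hoxb13 stood at 302, 285, 295 and 237 CPM against 278, 279 and 300 CPM. Lin28a-induced replicate 5 was the lowest library, and the groups overlapped (-0.03 ± 0.20, interval -0.49 to 0.43, adjusted p = 0.969). Hoxd13 stood at 304, 283, 288 and 265 CPM against 238, 265 and 284 CPM. Its ranges overlapped as well (0.12 ± 0.16, interval -0.25 to 0.48, adjusted p = 0.799).

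Over the 4 genes, 0 of 4 passed, where 2.91% of all tested genes did (1.76% higher, 1.15% lower), and 1 of 4 had ranges that did not overlap, where 23.4% of all tested genes did. At an unadjusted p under 0.05 the count was 1 of 4, Hoxc13, by edgeR, and 0 of 4 passed by DESeq2 (Hoxc13 adjusted p = 0.0681) or limma-voom (0.128). Leaving out wild-type replicate 2, the count was 1 of 4 (8.87% of all genes), and with the 2 groups alone it was 1 of 4 (11.2%). In the former fit the intervals narrowed to -0.20 to 0.13 for Hoxb13 and -0.01 to 0.24 for Hoxd13.

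**Figure D2:**
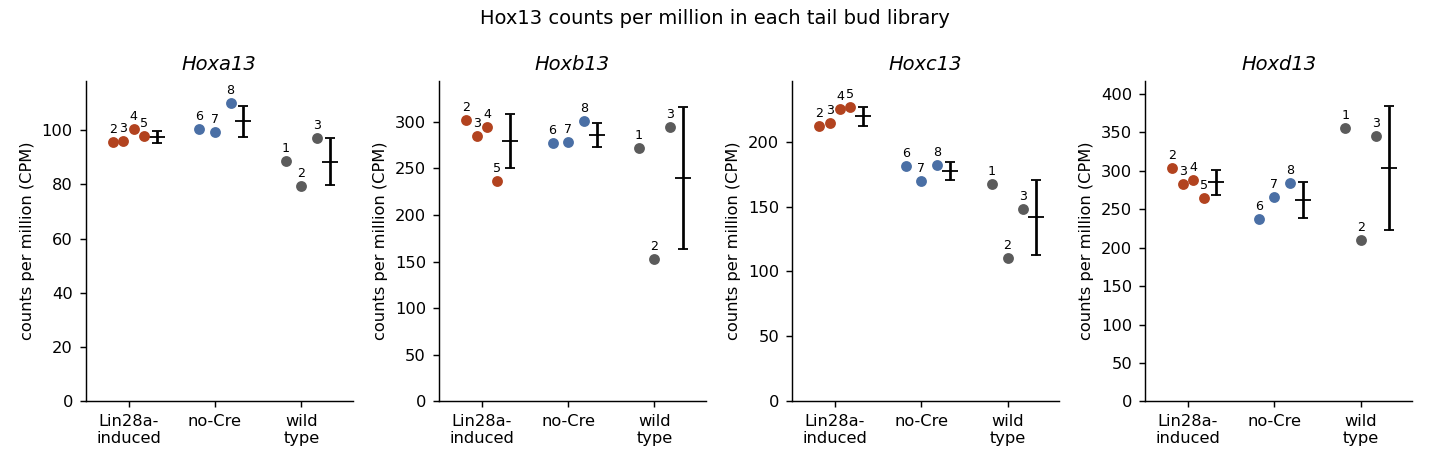
CPM of each Hox13 gene in each library, with the replicate number above each point and the group mean ± SD as the bar at the right of each group (n = 4, 3 and 3). The Hoxc13 points of the Lin28a-induced group (212 to 227 CPM) sit above all no-Cre points (169 to 182 CPM), and wild-type replicate 2 is the lowest point of every panel.

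The wild-type group allowed a comparison with embryos that carry no named transgene. These comparisons share the wild-type libraries, and in them 49.3% (Lin28a-induced, 24.3% higher and 25% lower) and 42.5% (no-Cre, 21% higher and 21.4% lower) of all tested genes passed. Hoxc13 passed in both comparisons and Hoxa13 in that of no-Cre. For Hoxc13, wild-type replicates 1, 2 and 3 held 167, 110 and 148 CPM, below every library of the other groups. Hoxc13 rose 1.55-fold in Lin28a-induced against wild type (0.63 ± 0.11, adjusted p = 0.000475). When wild-type replicate 2 was left out it rose by 0.47 ± 0.06 (adjusted p = 7.69e-06), and it passed in 10 of 10 fits that left out 1 library.

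In no-Cre embryos Hoxc13 rose 1.25-fold over wild type (0.32 ± 0.11, adjusted p = 0.0365), with the lowest no-Cre library at 169 CPM and the highest wild-type library at 167 CPM. That call was lost without Lin28a-induced replicate 3 (adjusted p = 0.0505), without no-Cre replicate 6 (0.0936), 7 (0.0547) or 8 (0.0941), without wild-type replicate 3 (0.0532) and with the 2 groups alone (0.0851). With wild-type replicate 2 left out the value was 0.17 ± 0.06 (adjusted p = 0.0306). The mean level of Hoxc13 was 219 ± 7.49 CPM (SD, n = 4) in Lin28a-induced, 177 ± 6.96 CPM (n = 3) in no-Cre and 142 ± 28.9 CPM (n = 3) in wild-type embryos, and no 2 of these groups overlapped.

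Hoxa13 showed smaller differences. Wild-type replicates 1 to 3 held 88.7, 79.4 and 96.9 CPM. The no-Cre libraries lay above this range (0.22 ± 0.07, adjusted p = 0.0189), whereas the Lin28a-induced range overlapped it (0.14 ± 0.07, adjusted p = 0.087). The first of these calls was lost without no-Cre replicate 8 (0.0827) and with the 2 groups alone (0.0559), and the second was gained without wild-type replicate 3 (0.21 ± 0.06, adjusted p = 0.013). Without wild-type replicate 2 the values were 0.15 ± 0.06 (adjusted p = 0.0406) and 0.07 ± 0.05 (adjusted p = 0.321).

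The Hoxd13 calls against wild type depended on wild-type replicate 2. Wild-type replicates 1 and 3 held 355 and 345 CPM, above all 7 libraries of the other groups, and replicate 2 held 210 CPM, below all 7. With all libraries the gene did not pass against wild type in Lin28a-induced (-0.09 ± 0.16, adjusted p = 0.67) or no-Cre embryos (-0.21 ± 0.17, adjusted p = 0.361). Without replicate 2 it fell in both, by 0.30 ± 0.06 on the log2 scale in Lin28a-induced (adjusted p = 0.00174) and by 0.42 ± 0.07 in no-Cre embryos (adjusted p = 0.000285). That setting leaves 2 wild-type libraries.

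The Hoxb13 values against wild type also depended on that library. Wild-type replicates 1, 2 and 3 held 272, 153 and 294 CPM, and replicates 1 and 3 lay within the range of the Lin28a-induced libraries. The gene stood at 0.22 ± 0.20 in Lin28a-induced (adjusted p = 0.402) and 0.25 ± 0.22 in no-Cre embryos (adjusted p = 0.381). Without replicate 2 these values became -0.02 ± 0.08 (95% interval -0.21 to 0.16) and 0.01 ± 0.09 (-0.18 to 0.21).

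Counted together, 1 of 4 Hox13 genes passed in Lin28a-induced against wild type, and its ranges were the only ones of the 4 that did not overlap (49.3% of all tested genes did not). In no-Cre against wild type 2 of 4 passed, and the same genes, Hoxa13 and Hoxc13, did not overlap (52% of all tested genes did not). Leaving out wild-type replicate 2 gave 2 of 4 (Hoxc13 higher, Hoxd13 lower) and 3 of 4 (Hoxa13 and Hoxc13 higher, Hoxd13 lower), where 45.5% and 38.8% of all tested genes passed. With only the 2 groups compared in the fit, the edgeR counts were 1 of 4 (44.8% of all genes) and 0 of 4 (36.1%), the latter with 2 of 4 at an unadjusted p under 0.05, while DESeq2 and limma-voom on all libraries each gave 2 of 4 in no-Cre against wild type. Markers of the tail bud itself also separated wild type from the other groups. Their 8-gene sum was 280 to 640 CPM in wild type and 703 to 968 CPM in the other 7 libraries. With all libraries, all 8 estimates were above 0 in both comparisons (medians 0.65 and 0.56). Of the 8, 2 passed in Lin28a-induced and 3 in no-Cre embryos, where 49.3% and 42.5% of all tested genes did. Without wild-type replicate 2, all 8 stayed above 0 in Lin28a-induced embryos (median 0.34). In no-Cre embryos 5 of 8 were then above 0 and 3 below (median 0.21). The surface ectoderm and macrophage marker sums, Epcam and Cldn6, and the mitochondrial share separated wild type as well. The part of any of these in the Hox13 differences was not tested. Wild type held no female library. With sex as a covariate, Hoxc13 stood at 0.63 in Lin28a-induced (adjusted p = 0.00123) and at 0.33 in no-Cre embryos (adjusted p = 0.0593).

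**Figure D3:**
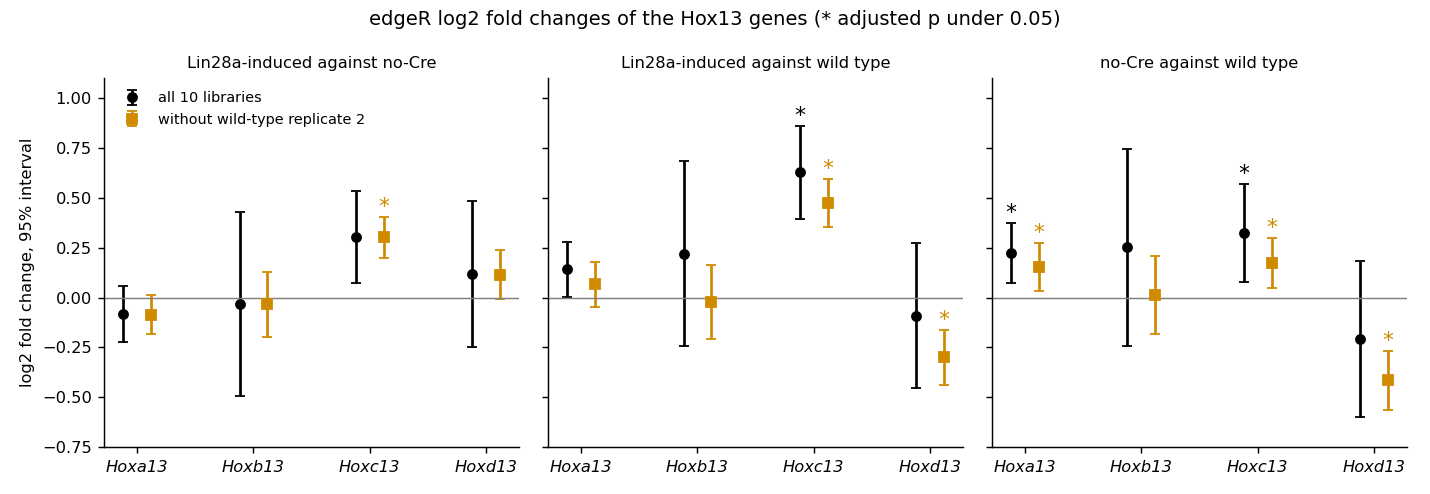
Log2 fold change and 95% interval of each Hox13 gene in the 3 comparisons, with all 10 libraries (circles) and without wild-type replicate 2 (squares), where a star marks an adjusted p under 0.05. Hoxc13 lies above 0 in every panel, and the Hoxd13 estimates against wild type move from -0.09 and -0.21 to -0.30 and -0.42 once replicate 2 is left out.

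Scaled by exon length, so that genes can be set against each other, the levels had an order that differed between groups. In Lin28a-induced libraries Hoxb13 came first with 127 ± 13.3 CPM per kb (SD, n = 4), then Hoxd13 with 115 ± 6.42, Hoxc13 with 89.1 ± 3.04 and Hoxa13 with 39.4 ± 0.906. The ranges of Hoxb13 and Hoxd13 overlapped there, and the other neighbours in the order did not. In no-Cre libraries the order was the same and no neighbours overlapped, from Hoxb13 (129 ± 5.87, n = 3) through Hoxd13 (106 ± 9.46) and Hoxc13 (72.1 ± 2.83) to Hoxa13 (41.7 ± 2.35). In wild type Hoxd13 came first (122 ± 32.6, n = 3), before Hoxb13 (109 ± 34.5), Hoxc13 (57.6 ± 11.7) and Hoxa13 (35.7 ± 3.54), and only Hoxd13 and Hoxb13 overlapped among neighbours.

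The switch of this length-scaled order between Hoxb13 and Hoxd13 held within each library. The ratio of Hoxd13 to Hoxb13 in CPM per kb was 1.16, 1.22 and 1.04 in wild-type replicates 1, 2 and 3, above 1 in 3 of 3. It was 0.895, 0.883, 0.867 and 0.995 in Lin28a-induced and 0.761, 0.846 and 0.841 in no-Cre libraries, above 1 in 0 of 7. Wild-type replicate 2, in which both genes were low, had the highest ratio of the 10 libraries. A ratio within a library does not depend on the scaling between libraries, and it shows unequal change of the 2 genes without saying which of them changed. Whether it lies above 1 does depend on the exon lengths used. In plain counts Hoxd13 also exceeded Hoxb13 in Lin28a-induced replicates 2 (9213 against 9142) and 5 (10435 against 9320), but in no other Lin28a-induced or no-Cre library.

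The same was seen in the share of each gene in the summed Hox13 level per kb. Hoxd13 made up 38.7%, 36.6% and 37.4% of the sum in wild-type replicates 1, 2 and 3, and 30.4% to 31.9% in Lin28a-induced and 28.5% to 31.2% in no-Cre libraries. Hoxc13 made up 22.4% to 26.6% in Lin28a-induced, 20.0% to 21.9% in no-Cre and 16.2% to 19.4% in wild-type libraries, and these ranges did not overlap. The shares of Hoxa13 in Lin28a-induced (10.1% to 11.4%) and of Hoxb13 (31.1% to 35.6%) lay below those of no-Cre (11.7% to 12.1% and 36.9% to 37.5%), while the wild-type range of Hoxa13 (9.69% to 13.9%) spanned both and that of Hoxb13 (30.03% to 35.9%) overlapped Lin28a-induced and lay below no-Cre. Shares sum to 100% by construction, so a higher share of Hoxc13 lowers the rest. These are descriptions without a test.

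**Figure D4:**
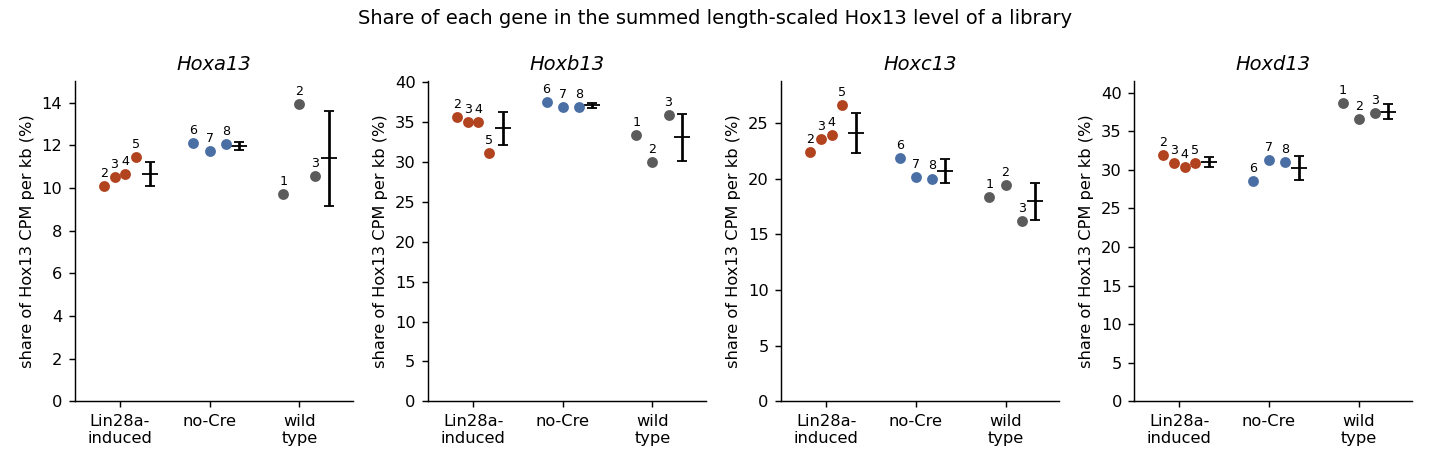
Share of each gene in the summed Hox13 level (CPM per kb of exon) of a library in percent, with replicate numbers above the points and mean ± SD as bars (n = 4, 3 and 3). Hoxd13 shares of all 3 wild-type libraries (36.6% to 38.7%) lie above those of the other 7 (28.5% to 31.9%), and Hoxc13 shares descend from Lin28a-induced to wild type without overlap.

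Along the clusters, the 12 Hox genes of groups 9 to 12, which pattern the trunk, the sacral region and the limbs anterior to group 13, leaned one way between Lin28a-induced and no-Cre embryos. All 12 estimates were above 0 (median 0.25, against 0.00 over all tested genes), and 2 of 12 rose (1.76% of all tested genes did), Hoxd10 (0.34 ± 0.06, adjusted p = 0.0125) and Hoxd11 (0.24 ± 0.06, adjusted p = 0.0466). DESeq2 called 6 of 12, and 982 of all 16340 genes, and limma-voom 3 of 12, and 538 of all genes. In the fit without wild-type replicate 2, 7 of 12 rose, where 8.87% of all genes passed in either direction. The Hoxd10 call was lost without no-Cre replicate 6 (0.0887), 7 (0.0705) or 8 (0.074), and that of Hoxd11 in 8 of 10 fits that left out 1 library (adjusted p up to 0.194), passing without wild-type replicate 2 or 3. The Hoxc genes next to Hoxc13 stood at 0.29 ± 0.08 for Hoxc12, 0.44 ± 0.13 for Hoxc11 and 0.25 ± 0.11 for Hoxc10, none of which passed (adjusted p from 0.0793 to 0.288). The difference of Hoxc13 (0.31) was thus of the size seen in its cluster, whereas Hoxa13 (-0.08) stood below Hoxa9, Hoxa10 and Hoxa11 (0.31, 0.20 and 0.22). Whether members of a cluster differ from each other was not tested.

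Against wild type the clusters were mixed. In Lin28a-induced embryos Hoxc10 (0.63 ± 0.11), Hoxc12 (0.46 ± 0.08) and Hoxd9 (0.43 ± 0.12) rose and Hoxa9 (-0.46 ± 0.12), Hoxa10 (-0.32 ± 0.05) and Hoxd10 (-0.23 ± 0.06) fell. These 6 of 12 are near the share of all tested genes that passed (49.3%), and the 6 of 12 in no-Cre embryos stand beside 42.5%. There, Hoxc10 rose (0.38 ± 0.12) and Hoxa9 (-0.77 ± 0.13), Hoxa10 (-0.52 ± 0.06), Hoxc9 (-0.28 ± 0.10), Hoxd10 (-0.57 ± 0.07) and Hoxd11 (-0.26 ± 0.06) fell. In HoxA, the no-Cre values ran from -0.77 at Hoxa9 through -0.52 at Hoxa10 and -0.25 at Hoxa11 to 0.22 at Hoxa13, so that the 5′ end of this cluster was higher and its middle lower than in wild type. Of these calls, Hoxc9 was lost in 7 of 10 fits that left out 1 library (adjusted p up to 0.189), passing without Lin28a-induced replicate 3, no-Cre replicate 6 or wild-type replicate 2, and Hoxc10 was lost without no-Cre replicate 6 (0.0622) or 8 (0.063).

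**Figure D5:**
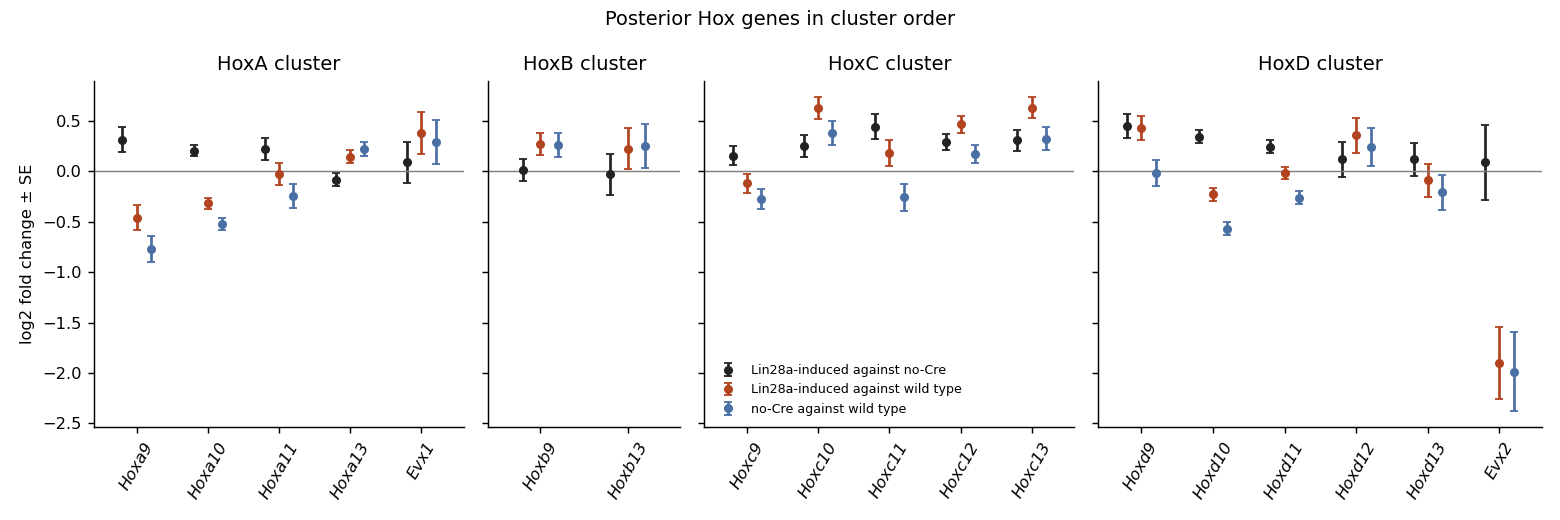
Log2 fold change ± SE of the Hox genes of groups 9 to 13 and of Evx1 and Evx2, in cluster order with the 5′ end at the right, in the 3 comparisons. Black points (Lin28a-induced against no-Cre) lie at or above 0 for groups 9 to 12, the HoxA points against wild type climb from Hoxa9 to Hoxa13, and Evx2 is lowest at -1.90 and -1.99.

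Neighbouring genes and noncoding transcripts of the clusters gave 12 tested genes of 21 listed, 13 of which are in the table by name. Between Lin28a-induced and no-Cre embryos 2 of 12 rose, where 1.76% of all tested genes did. Hotair, a long noncoding RNA gene of the HoxC cluster between Hoxc11 and Hoxc12, rose by 0.38 ± 0.09 (adjusted p = 0.0462), and Hoxa11os, antisense to Hoxa11, by 0.38 ± 0.07 (adjusted p = 0.0149). The strand setting of the counting is not given in the sources used here, so reads of Hoxa11 and Hoxa11os may not be told apart. Hotair was lost in 7 of 10 fits that left out 1 library (adjusted p up to 0.191), passing without any 1 wild-type library, and Hoxa11os without no-Cre replicate 6 (0.0967), 7 (0.0592) or 8 (0.0877).

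Evx2, a homeobox gene 8.75 kb beyond Hoxd13 at the 5′ end of the HoxD cluster, differed most from wild type on this list. Wild-type replicates 1, 2 and 3 held 49.6, 21.3 and 51.2 CPM, Lin28a-induced libraries 8.72 to 13.7 CPM and no-Cre libraries 7.06 to 14.8 CPM. Even wild-type replicate 2 lay above all others. Evx2 fell in Lin28a-induced (-1.90 ± 0.35, adjusted p = 0.00262) and no-Cre embryos (-1.99 ± 0.39, adjusted p = 0.00444). Hoxd13 in the same libraries was below wild-type replicates 1 and 3 but above replicate 2 (210 CPM), and did not pass with all libraries. Also against wild type, Hoxa11os rose in Lin28a-induced embryos (0.27 ± 0.07), and Hotair (-0.56 ± 0.10) and Calcoco1 (-0.27 ± 0.08), a gene flanking HoxC, fell in no-Cre embryos. The Calcoco1 call was lost without no-Cre replicate 6 (0.0774). On this list 2 of 12 passed in Lin28a-induced and 3 of 12 in no-Cre embryos, where 49.3% and 42.5% of all tested genes did.

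Regulators that act upstream of posterior Hox genes were listed as 16 genes. Between Lin28a-induced and no-Cre embryos 1 of 16 rose, Lin28a itself (7.38 ± 0.21, adjusted p = 2.95e-07), where 1.76% of all tested genes did. The count was 4 without wild-type replicate 2 and 6 with the 2 groups alone. In those fits 8.87% and 11.2% of all genes passed in either direction. Gdf11, the signal that ends trunk formation and promotes posterior Hox expression, stood at 264, 242, 262 and 245 CPM in Lin28a-induced and 227, 221 and 229 CPM in no-Cre libraries. Its ranges did not overlap, and it did not pass (0.17 ± 0.18, adjusted p = 0.74). The caudal-type homeobox genes Cdx1 (0.84 ± 0.30), Cdx2 (0.16 ± 0.10) and Cdx4 (0.30 ± 0.25) did not pass either (adjusted p from 0.172 to 0.631).

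The regulator list holds Lin28a, which was induced by design, and shares T, Cdx2, Wnt3a, Fgf8 and Cyp26a1 with the tail bud markers. Against wild type, 10 of 16 rose and 1 of 16 fell in Lin28a-induced embryos, where 24.3% of all tested genes rose and 25% fell. Those that rose were Lin28a (6.97 ± 0.21), Lin28b (0.72 ± 0.14), Gdf11 (0.73 ± 0.19), Cdx1 (3.77 ± 0.42), Cdx2 (0.86 ± 0.10), Cdx4 (0.97 ± 0.26), the retinoic acid-degrading enzyme gene Cyp26a1 (0.74 ± 0.14), the Polycomb genes Ezh2 (0.19 ± 0.05) and Cbx2 (0.48 ± 0.06), and Ctcf (0.22 ± 0.06), which encodes an insulator protein. Cdx1 was near 0 in wild type, with a mean of 0.263 CPM against 3.68 CPM in Lin28a-induced and 2.04 CPM in no-Cre libraries. Its fold changes against wild type thus start from a very low level, unlike those of Cdx2 and Cdx4 (wild-type means 45.5 and 26.8 CPM). Nr6a1 fell by 0.49 ± 0.15 in Lin28a-induced embryos (adjusted p = 0.0163), a call lost without wild-type replicate 2 (0.0727). In no-Cre embryos 7 of 16 rose and 1 of 16 fell, where 21% of all tested genes rose and 21.4% fell. Those that rose were Lin28b (0.52 ± 0.15), Gdf11 (0.56 ± 0.20), Cdx1 (2.94 ± 0.45), Cdx2 (0.70 ± 0.11), Cyp26a1 (0.72 ± 0.15), the retinoic acid-producing enzyme gene Aldh1a2 (0.66 ± 0.20) and Cbx2 (0.35 ± 0.07), and Nr6a1 fell by 0.69 ± 0.16.

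Wild-type replicate 2 was low in several of these genes, with Gdf11 at 0.543 of the mean of replicates 1 and 3. Cdx4 was at 0.557 of that mean, but replicates 1, 2 and 3 held 21.2, 17.5 and 41.7 CPM. Replicate 2 was thus near replicate 1 in Cdx4, and replicate 3 was the highest. The Cdx4 call in Lin28a-induced embryos was lost with the 2 groups alone and no wild-type replicate 2 (0.0885). In no-Cre embryos the Gdf11 call was lost in 7 of 10 fits that left out 1 library, each a Lin28a-induced or no-Cre library (adjusted p up to 0.101), that of Lin28b without no-Cre replicate 6 (0.0633) or 7 (0.0541) or wild-type replicate 3 (0.0541), and that of Aldh1a2 without no-Cre replicate 6 (0.084) or 7 (0.081) or any 1 wild-type library (0.0664 to 0.0862).

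Cofactors of the TALE class, homeodomain proteins of the Meis, Pbx and Pknox families that bind DNA with Hox proteins, gave 0 of 9 calls between Lin28a-induced and no-Cre embryos. At an unadjusted p under 0.05 there were 4 of 9, among them Meis2 (-0.23 ± 0.07, adjusted p = 0.122), Pknox2 (0.38 ± 0.15, 0.234) and Meis3 (0.40 ± 0.17, 0.284). DESeq2 called 1 of 9 and limma-voom 0 of 9, and 1 of 9 rose and 1 of 9 fell with the 2 groups alone. Of all tested genes, 2.91% passed in the edgeR fit of all 10 libraries and 11.2% with the 2 groups alone. Against wild type, Meis3 (0.81 ± 0.18), Pbx2 (0.35 ± 0.06) and Pknox2 (0.58 ± 0.15) rose and Pbx3 (-0.80 ± 0.10) fell in Lin28a-induced embryos. In no-Cre embryos Meis2 (0.26 ± 0.08) and Pbx2 (0.27 ± 0.06) rose and Pbx3 (-0.66 ± 0.11) fell. The Pknox2 call was lost without wild-type replicate 2 (0.055), and that of Meis2 without no-Cre replicate 6 (0.072) or 8 (0.0543) or wild-type replicate 3 (0.0643).

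Genes reported as direct or genetic targets of HOX13 proteins, known mainly from limb and genital tissue, gave 8 tested genes of 10 listed. Between Lin28a-induced and no-Cre embryos 0 of 8 passed, with Enpp2, which encodes the enzyme autotaxin, at -0.51 ± 0.17 (adjusted p = 0.138) and the ephrin receptor gene Epha7 at -0.30 ± 0.14 (adjusted p = 0.321), and 1 of 8, Enpp2, had an unadjusted p under 0.05. DESeq2 called 1 of 8 and limma-voom 0 of 8, and 3 of 8 fell with the 2 groups alone. Over all tested genes the shares were 2.91% in the edgeR fit of all 10 libraries and 11.2% with the 2 groups alone. Against wild type in Lin28a-induced embryos the BMP antagonist gene Sostdc1 (-2.05 ± 0.21), Epha7 (-0.94 ± 0.14), Enpp2 (-0.66 ± 0.17) and the ligand gene Bmp2 (-0.61 ± 0.16) fell, and Shh (1.05 ± 0.30) and Gli3 (0.25 ± 0.07) rose. In no-Cre embryos Sostdc1 (-2.10 ± 0.24), Bmp2 (-0.74 ± 0.17) and Epha7 (-0.63 ± 0.15) fell, and Shh (1.47 ± 0.31) and Aldh1a2 (0.66 ± 0.20) rose. These 6 of 8 in Lin28a-induced and 5 of 8 in no-Cre embryos stand beside 49.3% and 42.5% of all tested genes that passed. The Shh call in Lin28a-induced embryos was lost without wild-type replicate 2 (0.0728). Surface ectoderm markers fell against wild type in both comparisons, and their part in these differences, which went both ways, was not tested.

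The genes most like each Hox13 gene were sought by Pearson correlation of log2 CPM centred within groups, over 10 libraries and genes of at least 1 CPM on average, leaving out predicted ones. Hoxa13 was most like Zxdc (r = 0.980), Sec23ip (0.976) and Mmp25 (0.975). Hoxb13 was most like Sept8 (0.996), Chst10 (0.994) and Smim13 (0.994), and Hoxd13 most like Cyb5rl (0.994), Lrp12 (0.992) and Myo15b (0.988). Hoxc13 was most like Swap70 (0.986), Sgsm2 (0.985) and Cpsf1 (0.984). No Hox gene was among these 12, and the points share library and depth. With wild-type replicate 2 dropped after centring, the same pairs had correlations of 0.955 to 0.988 over 9 libraries. The wild-type mean used for centring still held replicate 2, so these values are not free of that library. The pairs were picked as the highest in these same libraries, so their high correlations are a description only.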

How the data were processed

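The deposited table gives raw read counts for each gene symbol and library, not normalized by the authors. The submitters' processing notes name STAR 2.3.1z4, featureCounts and the build mm10, and DESeq2 with no step given. Stranded libraries were read as 75-base single reads, per the labels' protocols. No source used here gives the annotation release or how strand and multi-mapping reads were treated.

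Here, genes passing filterByExpr were scaled by TMM and fitted by edgeR 4.0.16 (quasi-likelihood test, robust option, R 4.3.3), with all 10 libraries and 3 groups in 1 model. Benjamini-Hochberg adjustment ran over the 16340 tested genes of each comparison, threshold 0.05. Adjusted p-values are from this test unless another tool is named. SE is the absolute log2 fold change over the square root of F, and intervals are 95%. limma-voom (limma 3.58.1) and DESeq2 1.42.0 were alternatives. The fit was tested on simulated data for Lin28a-induced against no-Cre. It found 16 of 50 genes changed 1.3-fold, 29 of 50 at 1.5-fold, 34 of 50 at 2-fold and 48 of 50 at 3-fold, with 5 false calls.

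Of the symbols, 35654 matched GENCODE M21 (GRCm38), the source of positions, exon lengths and 3′ UTRs. Members and lists were chosen with earlier results of these data known. All 4 members, every list member that passed, up to 4 of the smallest p where none passed, and the 3 most alike genes per member were named by rule. Markers, Gdf11, Cdx genes and the Hox genes next to a member were also named after their values were seen. Some items that the rule names are not reported here. Fits without both female libraries, and of 2 groups without wild-type replicate 2, were chosen after the data were examined. Since the labels do not tie each library to its own embryo, p-values reflect spread among libraries, which may be technical. No batch is labelled, and a batch aligned with group membership cannot be told apart from it.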

Additional observations from a re-analysis of the deposited data

How the results depend on the processing

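For the 4 Hox13 genes in 3 comparisons, 256 alternative values were computed: 228 kept direction and side of the threshold, 12 lost the call, 7 gained it and 9 changed sign. Between Lin28a-induced and no-Cre, the number passing was 1 with the 2 groups alone or without wild-type replicate 2, in place of 0 (Hoxc13, 0.30 in both). Hoxb13 changed sign without both female libraries (0.022), without Lin28a-induced replicate 5 (0.041) and without no-Cre replicate 8 (0.0072). In Lin28a-induced against wild type, leaving out each library gave 1 to 2 calls, with Hoxa13 from 0.067 to 0.21, Hoxb13 from -0.023 to 0.39, Hoxc13 from 0.47 to 0.77 and Hoxd13 from -0.30 to 0.039. Hoxd13 turned positive without wild-type replicate 1 (0.039) or 3 (0.011). With the 2 groups alone and no wild-type replicate 2, 2 passed, with Hoxb13 at -0.016 and Hoxd13 at -0.29.

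In no-Cre against wild type, 1 in place of 2 passed without a filter on low counts, with the sex covariate and without both female libraries, and 0 with the 2 groups alone. Hoxc13 then stood at 0.34, 0.33, 0.36 and 0.32, and Hoxa13 at 0.22 with the 2 groups alone and 0.15 when wild-type replicate 2 was also left out, where Hoxd13 stood at -0.42. Leaving out each library gave 0 to 3 calls, with Hoxa13 from 0.15 to 0.30, Hoxb13 from 0.011 to 0.43, Hoxc13 from 0.17 to 0.46 and Hoxd13 from -0.42 to -0.076. Between Lin28a-induced and no-Cre, those fits gave 0 to 1 calls, with Hoxa13 from -0.11 to -0.036, Hoxb13 from -0.071 to 0.041, Hoxc13 from 0.27 to 0.32 and Hoxd13 from 0.050 to 0.18. The cause of these changes was not tested.

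Lin28a-induced and wild-type libraries share the replicate numbers 2 and 3 only. Their deviations correlated at -0.041 and -0.128, so the libraries share a number and no pairing is shown. In a fit of these 4 libraries with the replicate block, 1 of 4 passed, Hoxc13 at 0.73 (adjusted p = 0.000167) and Hoxd13 at 0.12, and without the block 1 passed, with 0.72 (0.0187) and 0.080. Over all genes 3596 passed with the block and 2651 without.

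The count over all genes between Lin28a-induced and no-Cre was 476, 982 by DESeq2, 1791 with the 2 groups alone, 1482 without wild-type replicate 2, 303 with the sex covariate and 40 without both female libraries, and 104 to 304 without 1 Lin28a-induced or no-Cre library. For the other genes named with a call, 1294 alternative values gave 1184 that kept it, 110 that lost it and 0 that changed sign. Each Hox13 gene had 1958 counts or more per library, and an effect of depth on the calls was not tested.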
